A study of Mus musculus with 5 samples.

Results

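The genes of oxidative phosphorylation were followed across the cells of the mouse colon mesenchyme. Members were the genes in the deposited tables whose symbols begin with the stems used for subunits of respiratory complexes I to IV and of ATP synthase, with the assembly factors named Ndufaf and the gene Ndufa4l2 left out. The rule found 95 members among 20355 genes, of which 11 are encoded in mitochondrial DNA and 84 in the nucleus. A few of the symbols do not name a subunit: Sdhaf1 and Sdhaf2 are assembly factors of complex II, and Atp5l-ps1 is a pseudogene. Ndufa4, which was first named as a complex I subunit and is now placed in cytochrome c oxidase, was counted with complex IV.

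Cells were freshly isolated from the colon mesenchyme of untreated C57/BL6 mice at 10 weeks of age, after the epithelium had been stripped with EDTA and DTT and the remaining tissue digested with Collagenase XI and Dispase. Single-cell transcriptomes were made by Drop-seq, in which each cell is caught in a droplet with a barcoded bead and each captured mRNA molecule carries a unique molecular identifier (UMI). There were 2 biological replicates, the first with collections 1A and 1B and the second with collections 2A, 2B and 2C. All 5 collections share genotype, age and handling, so the comparisons made here are between cell types within the same samples. The labels do not state how many animals made up a replicate. With the replicate as a block, p-values rest only on how far differences between groups vary between the replicates as deposited.

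Oxidative phosphorylation joins 5 protein complexes of the inner mitochondrial membrane. Complex I (NADH dehydrogenase), complex II (succinate dehydrogenase), complex III (the cytochrome bc1 complex) and complex IV (cytochrome c oxidase) pass electrons from nutrients to oxygen and, apart from complex II, pump protons, and ATP synthase uses the proton gradient to make ATP. All but complex II mix subunits from the 2 genomes. The mitochondrial genome is transcribed as long precursors that are cut into ribosomal RNAs, transfer RNAs and polyadenylated mRNAs, whereas each nuclear subunit has a gene and a promoter of its own. Several subunits exist as isoform pairs, such as Cox4i1 and Cox4i2, whose use differs between tissues and with oxygen supply.

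The tables held 7935 barcodes with 11529835 UMIs, between 1636550 and 3345732 per collection. The 6672 barcodes with 300 or more genes were kept, with a median of 1305 UMIs and 736 genes, and no limit was set on mitochondrial RNA. Of these, 667 had more than 10% mitochondrial UMIs. Only 10 barcodes occurred in 2 collections, and of the genes taken by the naming rule only mt-Nd6 in T/NK/ILC-like cells lost its call when they were left out. Barcodes were clustered without any member or other metabolic gene, so that the grouping did not use the members, and clusters were named by marker genes. This gave 11 groups large enough to test, from 136 dendritic cell-like barcodes to 3233 fibroblast-like barcodes. The other genes tested could enter the clustering, so the shares over all genes given below include genes that shaped the groups. T cells, natural killer cells and innate lymphoid cells formed a joint group of 393 barcodes, written T/NK/ILC-like. One of the 11, of 139 barcodes, stays unnamed. It raised 9 of 10 smooth muscle markers and 5 of 8 pericyte markers and was led by Rgs5 and Acta2. The doublet caller Scrublet marked 24 barcodes (0.36%), too few to be taken as working, and none was removed.

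The mitochondrially encoded members fell into an abundant set and a nearly absent one. Over all barcodes, mt-Cytb (the cytochrome b of complex III) had 42375 UMIs and mt-Co1 (the catalytic subunit of complex IV) had 26057. The complex I genes mt-Nd1, mt-Nd2, mt-Nd4 and mt-Nd5 had 21341, 18990, 18037 and 11909 UMIs, and mt-Nd6, the only member read from the other strand, had 408. By contrast, mt-Co2 and mt-Atp6 had 14 UMIs each, mt-Co3 had 11 and mt-Nd3 had 4. The symbols mt-Nd4l and mt-Atp8 were not among the rows of the tables.

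The 4 nearly absent genes lie in a single stretch of the mitochondrial chromosome and have a near-identical copy in the nuclear genome. In GENCODE M21 on GRCm38, mt-Co2 (chrM:7013-7696, plus strand) matched the pseudogene Gm28661 (chr1:24614885-24615565, minus strand) at 681 of 681 aligned bases. mt-Atp6 matched Gm10925 over 678 bases and mt-Co3 matched Gm28437 over 783 bases, both without a difference, and mt-Nd3 matched Gm28438 over 345 bases with 1 difference. The abundant mt-Cytb (chrM:14145-15288, plus strand) matched Gm11410 (chr4:80003989-80005131, plus strand) at 92.9% of 1142 bases, with 81 differing. Abundant genes also had close copies. mt-Co1 matched Gm13340 (chr2:22588103-22589647, minus strand) over its whole length of 1545 bases at 97.6%, with 37 differing. Other close copies covered part of a gene. The last 483 bases of mt-Co1 matched Gm29216 (chr1:24615706-24616197, minus strand) with 1 difference, and the first 876 bases of mt-Nd4, 63.6% of the gene, matched Gm28439 without a difference. The 60 bases at the end of the alignment, nearest to where a poly-A primed read begins, are shown for the pairs of mt-Co2, mt-Cytb and mt-Co1 so that the letters a read would have to distinguish can be seen. Capitals mark the bases that differ between gene and copy.
mt-Co2: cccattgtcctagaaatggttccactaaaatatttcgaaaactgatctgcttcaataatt
Gm28661: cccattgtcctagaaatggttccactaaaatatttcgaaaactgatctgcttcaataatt
mt-Cytb: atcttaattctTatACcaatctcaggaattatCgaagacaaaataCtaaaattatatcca
Gm11410: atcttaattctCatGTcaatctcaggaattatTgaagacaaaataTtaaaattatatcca
mt-Co1: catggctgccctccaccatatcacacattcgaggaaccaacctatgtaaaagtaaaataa
Gm29216: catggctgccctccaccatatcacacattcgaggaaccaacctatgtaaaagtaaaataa
In this window mt-Co2 and mt-Co1 could not be told from their copies, whereas mt-Cytb differed from its copy at 5 positions. None of the copies of the 4 low genes had a row in the tables. A row did exist for Gm10222, which is identical to the missing mt-Nd4l over 294 bases, with 8 UMIs. How reads with several matches were counted is not given in the sources used here, and the part of the copies in the low counts was not tested.

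**Figure D1:**
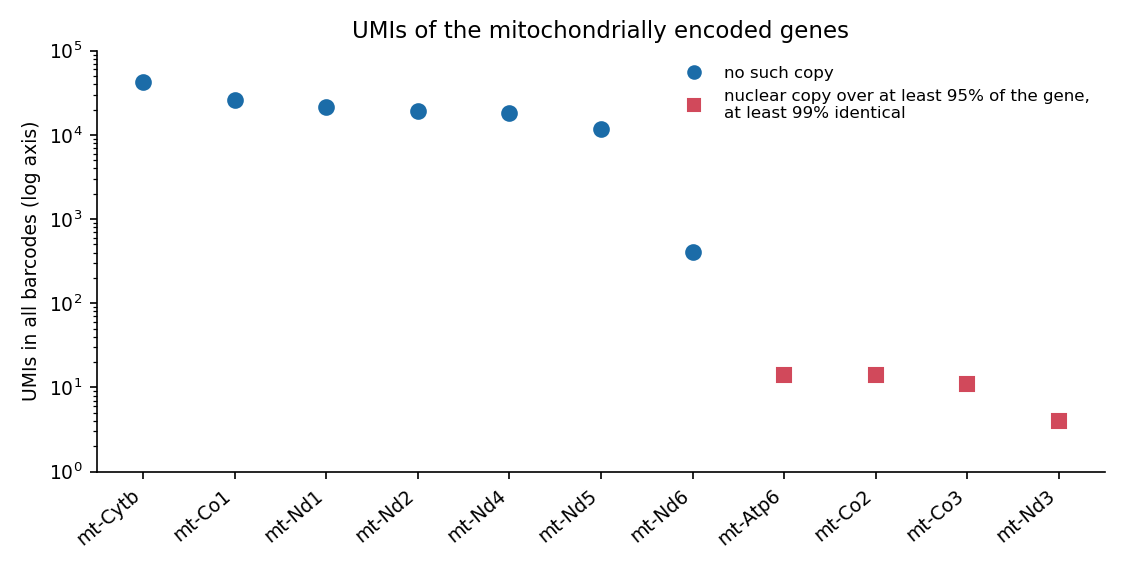
UMIs of the 11 mitochondrially encoded members over all barcodes (vertical log axis), ordered from high to low. Squares mark genes with a nuclear copy over at least 95% of their length at 99% identity or more: the 4 squares lie between 4 and 14 UMIs, and the 7 circles between 408 and 42375. Among the circles, mt-Co1 has a copy over its whole length at 97.6% identity.

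Mitochondrial RNA as a whole came mainly from the ribosomal RNAs mt-Rnr1 and mt-Rnr2, which are not members and made up 78.2% of the 673842 mitochondrial UMIs. The members supplied 20.7%, or 139160 UMIs. The share of a barcode group in each genome's members was therefore measured separately, as percent of all UMIs for mitochondrially encoded members and as percent of non-mitochondrial UMIs for nuclear members, so that a rise of mitochondrial RNA could not lower the nuclear share.

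Smooth muscle-like cells carried the largest mitochondrially encoded share, 4.21% in replicate 1 and 3.69% in replicate 2 (mean 3.95% ± 0.364, SD, n = 2). The unnamed Rgs5 and Acta2 group followed with 2.23% ± 0.057 and pericyte-like cells with 1.48% ± 0.024. The other 8 groups lay between 0.636% in macrophage-like cells and 0.960% in B cell-like cells. Over single collections the smooth muscle-like range of 3.27% to 4.42% did not overlap that of any other group, and the same was true of the unnamed group (1.95% to 2.50%) and of pericyte-like cells (1.40% to 1.57%). Among the other 8 groups, neighbours in the order overlapped.

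The nuclear share had another order. It was 2.52% in both replicates of the unnamed group and 2.62% and 2.15% in smooth muscle-like cells (2.39% ± 0.333, SD, n = 2), and these groups overlapped. B cell-like cells came next at 1.52% ± 0.318, with collection 2C at 2.34% and the other 4 collections at 1.18% to 1.49%. Collection 2C held 21 of the 259 barcodes of this group. Lymphatic endothelial-like, fibroblast-like, dendritic cell-like and T/NK/ILC-like cells lay between 1.21% and 1.34%. Pericyte-like cells, next to the unnamed group for the mitochondrial genome, had only 0.952% ± 0.024, close to macrophage-like cells at 0.927% ± 0.063, and enteric glia-like cells were lowest at 0.713% ± 0.056. Across the 11 groups, which share libraries, the shares of the 2 genomes correlated with Pearson's r of 0.796 and Spearman's rho of 0.536, given as a description.

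**Figure D2:**
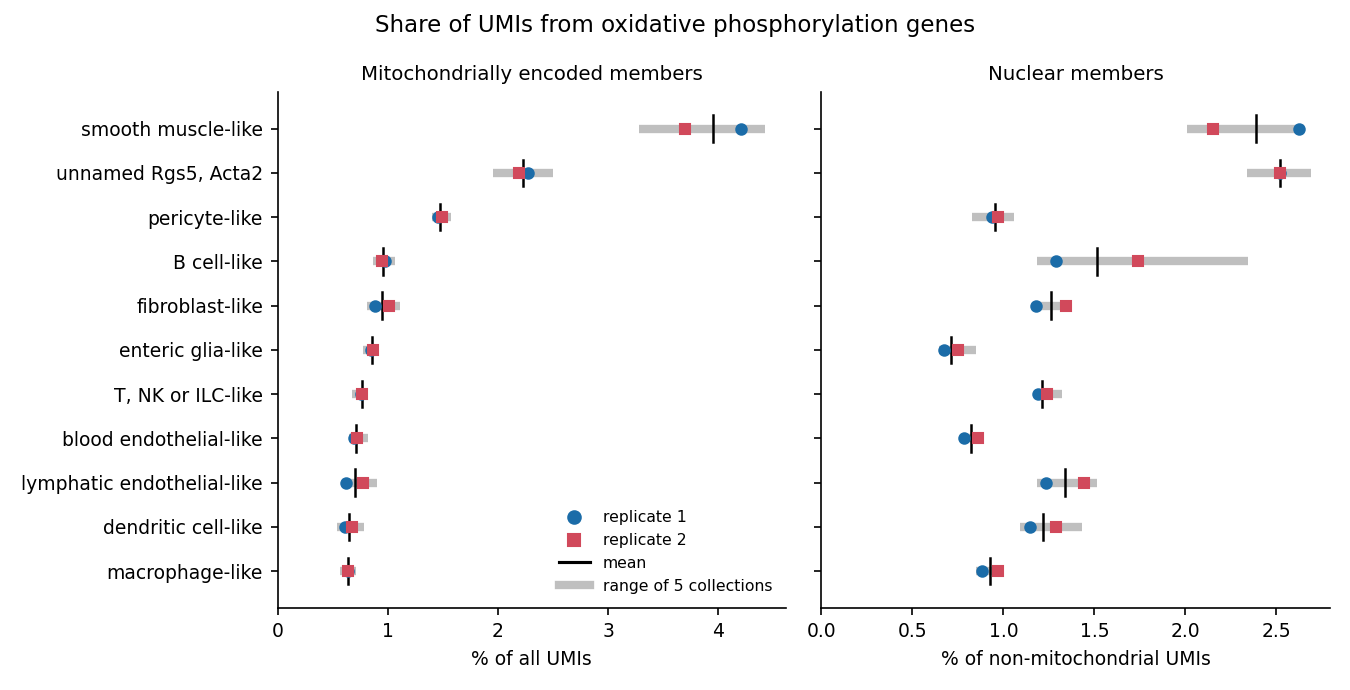
Share of UMIs from mitochondrially encoded members (left, % of all UMIs) and nuclear members (right, % of non-mitochondrial UMIs) in 11 groups; circles and squares are the 2 replicates, black lines their mean and grey bars the range of the 5 collections. Smooth muscle-like cells stand apart on the left at 3.95%, whereas on the right they lie beside the unnamed group, and pericyte-like cells are high on the left and low on the right.

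The mitochondrially encoded share also moved with other RNA. Per 100 UMIs of mitochondrial ribosomal RNA, members numbered 64.8 ± 13.7 (SD, n = 2) in B cell-like cells and 44.3 ± 2.28 in T/NK/ILC-like cells, against 32.0 ± 1.73 in smooth muscle-like and 16.5 ± 1.08 in blood endothelial-like cells. Malat1, an RNA kept in the nucleus, took 5.48% of non-mitochondrial UMIs in smooth muscle-like, 5.68% in the unnamed and 4.12% in pericyte-like cells, and 1.16% to 3.57% in the other groups. Its part in the shares was not tested.

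For single members, UMIs were summed per group and replicate and fitted in edgeR's quasi-likelihood test with the replicate as a block. Each group was set against the average log level of the other 10, and p-values were adjusted by Benjamini and Hochberg's method over the 7775 genes tested. Each group is thus part of the reference of the others. A filter on low counts passed 86 of 95 members, 79 nuclear and 7 mitochondrially encoded. The levels given below are CPM, that is counts per 1000000 non-mitochondrial UMIs for nuclear genes and per 1000000 of all UMIs for mitochondrially encoded genes, and a gene is called higher or lower where its adjusted p was under 0.05.

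In smooth muscle-like cells, the contractile cells of the gut wall, 66 of 79 nuclear members tested were higher and none was lower (median log2 fold change 1.11, against 0.09 over all genes tested). All 7 mitochondrially encoded members tested were higher, with a median of 2.34. For comparison, 23.3% of all genes tested were called higher in this group and 11.1% lower. DESeq2 called 65 nuclear members higher and none lower, and 69 were higher at an unadjusted p under 0.05 in edgeR with none lower. When libraries were scaled by total UMIs alone, the median of all genes moved from 0.09 to -0.15 and the share of higher genes among all called genes from 67.7% to 51.5%, whereas 61 nuclear members were still called higher and none lower.

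The mitochondrially encoded rise was large for every member tested in the group taken as a whole, although its clusters differed, as given below. mt-Cytb stood at 13552 and 12498 CPM of all UMIs in collections 1A and 1B, and at 9991, 11675 and 14919 in collections 2A, 2B and 2C. The next group, the unnamed one, had 7551 and 7968 in the 2 replicates and at most 8704 in a collection, so all 5 smooth muscle-like collections were above it. The log2 fold change of mt-Cytb was 2.55 ± 0.09 (SE; edgeR adjusted p = 5.7e-55). Of the complex I genes, mt-Nd2 and mt-Nd4 had log2 fold changes of 2.53 and 2.52, mt-Nd5 of 2.34 and mt-Nd1 of 2.27. mt-Co1 had 1.95, and mt-Nd6, at only 47 and 17 UMIs in the replicates, had 1.71. When barcodes above 10% mitochondrial UMIs were left out, the mitochondrially encoded share of the group was 1.59%, the median log2 fold change of the 7 genes was 0.97 and 6 of 7 were still called, and 52 of 77 nuclear members were called higher with a median of 1.01.

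Complex I, the entry point for electrons from NADH, had 30 of 36 nuclear members higher. Ndufb9 had 540 and 501 CPM in collections 1A and 1B and 484, 469 and 629 CPM in 2A, 2B and 2C. All 5 were above the other named groups, of which the lymphatic endothelial-like one came next with 144 and 164 CPM and at most 238 in a collection, while the unnamed group overlapped with 565 and 496. The log2 fold change of Ndufb9 was 2.22 ± 0.16 (edgeR adjusted p = 5.4e-25). Ndufa11 had 315 and 330 CPM in the 2 replicates and a log2 fold change of 2.05 ± 0.19, and it overlapped the unnamed group. Ndufa5 (276 and 167 CPM) and Ndufs7, which carries an iron-sulfur cluster (233 and 146 CPM), had log2 fold changes of 1.85 and 1.84. The members of complex I that did not pass were Ndufa6, Ndufb4, Ndufb5, Ndufc2, Ndufs1 and Ndufs4, with log2 fold changes from 0.27 to 0.59.

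Complex II, which has no mitochondrially encoded subunit and also works in the tricarboxylic acid cycle, had 2 of 6 tested members higher. Of all genes tested 23.3% were higher. Sdhb, the iron-sulfur subunit, had 261 and 138 CPM and rose by a log2 fold change of 1.38 ± 0.22 (edgeR adjusted p = 3.8e-08). Sdhc, a membrane anchor, had 174 and 100 CPM and a log2 fold change of 1.67 ± 0.25. Sdha, the flavoprotein, had 86.9 and 37.6 CPM in the replicates with a log2 fold change of 0.14 (adjusted p = 0.82), and the other anchor Sdhd had 52.2 and 29.3 CPM with 0.31 (adjusted p = 0.58). Sdha and Sdhd rested on 9 and 7 UMIs in replicate 2, so the lack of a call does not show that they stayed level. The difference between the called and the other members of the complex was not tested.

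In complex III, 7 of 8 members were higher. Uqcr11, a small subunit, had 452 and 452 CPM in collections 1A and 1B, and 334, 407 and 368 CPM in 2A, 2B and 2C. Both replicates, at 452 and 368 CPM, were above the next named group, the lymphatic endothelial-like one with 209 and 243 CPM, although its highest collection of 339.9 exceeded the lowest smooth muscle-like one, and they overlapped the unnamed group with 444 and 462. Its log2 fold change was 2.10 ± 0.17 (edgeR adjusted p = 4.2e-21). The Rieske iron-sulfur protein gene Uqcrfs1 was the member that did not pass, with 112 and 66.9 CPM and a log2 fold change of 0.24.

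In complex IV, 12 of 13 tested members were higher. Ndufa4 had 473 and 434 CPM in collections 1A and 1B and 463, 346 and 307 CPM in 2A, 2B and 2C, and the next group, B cell-like, had 162 and 274 CPM in the replicates. The 2 replicates of 457 and 381 CPM lay above those of all other groups, although B cell-like cells reached 395 CPM in 1 collection. The log2 fold change of Ndufa4 was 2.23 ± 0.18 (edgeR adjusted p = 5.7e-22), the largest of the nuclear members. The core assembly subunits Cox4i1, Cox5a and Cox5b rose by log2 fold changes of 1.07, 0.68 and 0.96. Of the isoforms that most tissues use in place of the heart and muscle forms, Cox6a1 rose by 1.29, Cox7a2 by 1.27 and Cox8a by 1.32. The striated-muscle isoforms Cox6a2, Cox7a1 and Cox8b had 2, 36 and 15 UMIs over all tested groups, of which smooth muscle-like cells held 0, 3 and 2. Cox7a2l, a factor that helps respiratory complexes associate, did not pass, at 266 and 238 CPM and a log2 fold change of -0.09 (adjusted p = 0.81). The call of Cox5a ended under 3 of 18 alternatives of processing.

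ATP synthase had 15 of 16 tested members higher, the exception being Atp5sl, whose symbol is that of the family but whose gene is not a subunit. Atp5k had the largest log2 fold change of the complex, 1.83, and Atp5f1 the smallest called one, 0.51. The 3 genes for the c subunit of the rotating ring, Atp5g1, Atp5g2 and Atp5g3, encode the same mature protein and rose by 1.36, 0.95 and 1.16. Atp5g1 shares long stretches with several other genes, so its reads may have been split between them.

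**Figure D3:**
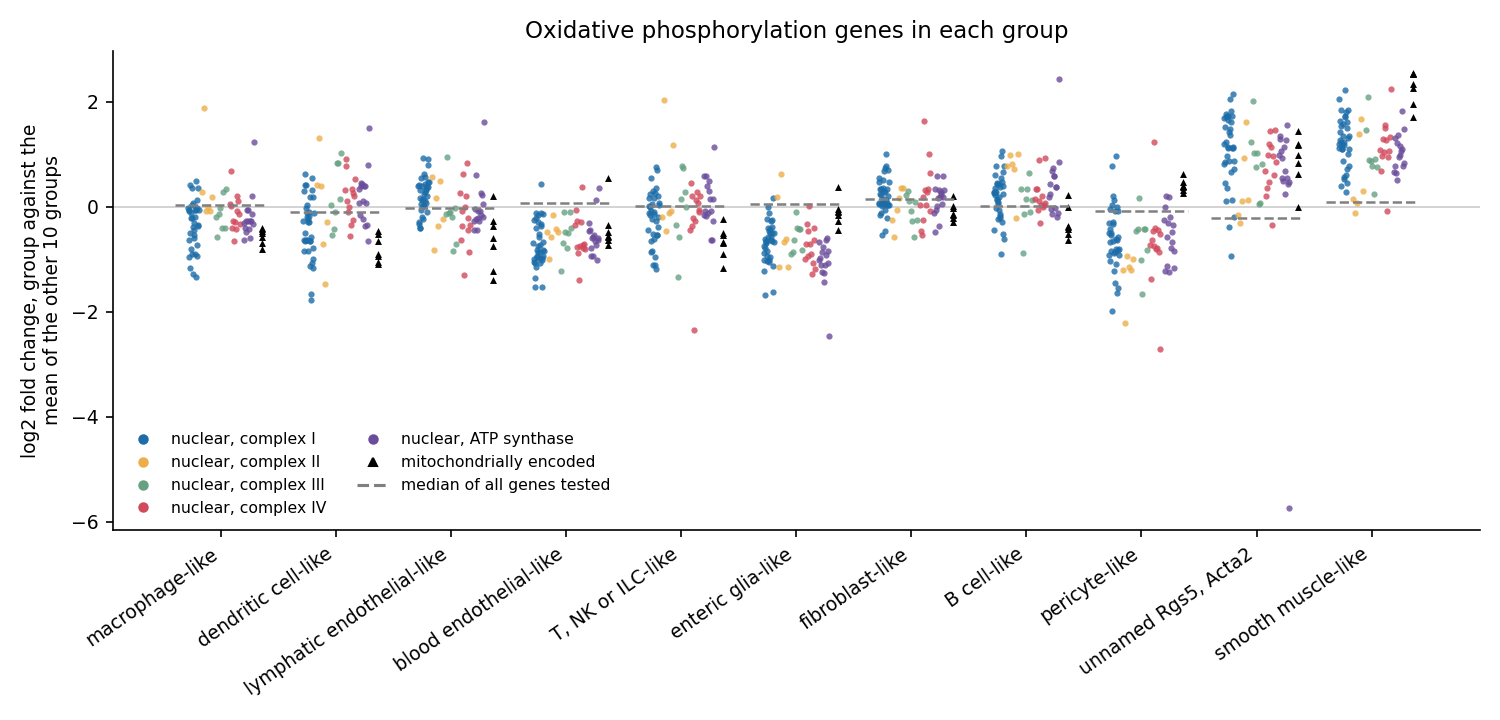
Log2 fold change of each tested member in each of 11 groups against the mean of the other 10; dots are nuclear members coloured by complex, triangles the 7 mitochondrially encoded members, and dashed lines the median of all genes tested. In the smooth muscle-like group the triangles lie between 1.71 and 2.55 and the nuclear median at 1.11, whereas blood endothelial-like and enteric glia-like cells have most dots under the dashed line. The lowest dot is Atp5sl, which had no UMI in the unnamed group, so its fitted value is no bound.

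Promoters were read for all nuclear members, whatever their change, from RefSeq on GRCm38.p6, over 250 bases before to 50 after the start site. An entry existed for 68 of them. The motif of nuclear respiratory factor 1 (GCGCA, any base, then GCGC) was found on either strand in 17 of them (25%), against 9.1% of 13008 promoters of genes in the tables. CCGGAAG, the core of the ETS family that includes GABP, occurred in 18 (26.5% against 16.1%), and TGACCTTG of the estrogen-related receptors in 4 (5.9% against 1.5%). Of the 55 members higher in smooth muscle-like cells that had a promoter, 13, 15 and 3 held the motifs in this order, and of the 11 that did not pass, 4, 3 and 1. These matches describe letters and not binding. The promoters of 3 members with large changes are shown 5′ to 3′ on the strand of the gene, with the motif in capitals: Uqcr11 (chr10:80406772-80407071, minus strand, CCGGAAG), Ndufa11 (chr17:56717512-56717811, plus strand) and Ndufa5 (chr6:24527477-24527776, minus strand), the last 2 with the nuclear respiratory factor 1 motif.
Uqcr11: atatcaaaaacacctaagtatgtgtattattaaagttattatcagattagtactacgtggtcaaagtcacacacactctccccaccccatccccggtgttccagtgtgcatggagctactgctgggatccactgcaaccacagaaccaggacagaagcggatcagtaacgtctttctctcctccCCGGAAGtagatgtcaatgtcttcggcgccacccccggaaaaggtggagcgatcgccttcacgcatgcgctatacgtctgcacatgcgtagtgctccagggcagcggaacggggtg
Ndufa11: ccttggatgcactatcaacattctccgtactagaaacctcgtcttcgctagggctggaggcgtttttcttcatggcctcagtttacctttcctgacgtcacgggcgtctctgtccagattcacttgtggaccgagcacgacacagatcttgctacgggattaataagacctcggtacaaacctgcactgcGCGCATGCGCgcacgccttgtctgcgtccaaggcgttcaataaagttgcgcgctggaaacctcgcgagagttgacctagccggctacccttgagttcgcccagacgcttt
Ndufa5: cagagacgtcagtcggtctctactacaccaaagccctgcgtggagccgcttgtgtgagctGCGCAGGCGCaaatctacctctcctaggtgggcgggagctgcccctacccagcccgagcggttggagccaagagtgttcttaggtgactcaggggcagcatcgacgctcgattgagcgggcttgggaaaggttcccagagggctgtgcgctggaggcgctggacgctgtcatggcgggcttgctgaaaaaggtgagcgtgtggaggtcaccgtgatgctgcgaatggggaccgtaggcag
Ndufa4 and Ndufs7, with log2 fold changes of 2.23 and 1.84, held none of the 3 motifs in this window.

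Other lists of energy metabolism genes were read beside the members in smooth muscle-like cells. Of 20 genes for pyruvate entry and the tricarboxylic acid cycle, 15 were higher and none lower, among them Idh3a (log2 fold change 1.96) and Idh2 (1.95). Of 15 tested assembly factors of the complexes, 8 were higher and none lower, including Coa3 at 1.57. Of 15 tested glycolysis genes 8 were higher, among them Eno1 at 1.48, and 1 was lower, Hk2, a hexokinase, at -1.50. Ckb, the cytosolic creatine kinase that buffers ATP, had 4.25 and Slc25a4, an ADP and ATP carrier, 1.88, whereas the related carrier gene Slc25a5 was lower at -0.55. Of 8 tested genes for mitochondrial biogenesis and transcription none was higher and Gabpb1 was lower at -1.86. Fibroblast markers summed to 5650 and 9067 CPM in this group, against 37704 and 36056 in fibroblast-like cells, and their part in these results was not tested.

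The smooth muscle-like group consisted of a cluster led by Myh11 and Actg2 with the highest Des (280 barcodes) and a cluster led by Hhip (228 barcodes). Mitochondrial RNA differed widely between them, with a median of 22.5% of UMIs per barcode in the Des cluster and 6.39% in the Hhip cluster. mt-Cytb stood at 15883 and 19939 CPM of all UMIs in the 2 replicates of the Des cluster and at 4848 and 4823 in the Hhip cluster, and no collection overlapped. Against the other groups all 7 tested mitochondrially encoded members were higher in the Des cluster, with a median log2 fold change of 2.96. In the Hhip cluster 3 of 7 were higher and none lower, with a median of 0.43. Of all genes 20.5% were higher in the Des and 14.4% in the Hhip cluster. In a direct comparison 6 of 7 mitochondrially encoded members were higher in the Des cluster (median log2 difference 2.37), where 6.25% of all 7202 genes tested were higher and 6.36% lower. mt-Nd6 was the one that did not pass.

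The nuclear members differed less between these clusters. Against the other groups, 65 of 77 nuclear members were higher in the Des cluster and none lower, where 20.5% of all genes were higher and 12.1% lower, and 36 were higher in the Hhip cluster with none lower, where 14.4% were higher and 5.32% lower. Directly compared, 9 nuclear members were higher in the Des cluster and none lower, with a median log2 difference of 0.47, and 27 were higher and 1 lower at an unadjusted p under 0.05 in edgeR. They were Atp5b, Atp5g3, Ndufa12, Ndufb7, Ndufb8, Ndufs6, Ndufs7, Sdhc and Uqcr11. Atp5g3 had 380 and 387 CPM in the Des cluster and 132 and 163 CPM in the Hhip cluster, a log2 difference of 1.54 ± 0.31 (edgeR adjusted p = 5.4e-05). The collections of the 2 clusters did not overlap for it. Fibroblast markers summed to 11640 and 13020 CPM in the Hhip cluster and to 3299 and 3391 in the Des cluster, and all 12 had UMIs in both. The part of this difference in the results was not tested.

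Splitting smooth muscle-like barcodes at 10% mitochondrial UMIs gave nearly the same division, with the Des cluster giving 172 of 188 barcodes above it in replicate 1 and 83 of 92 in replicate 2. Above the limit 4 of 72 tested nuclear members were higher, Atp5g3, Ndufb8, Ndufs6 and Uqcr11, and none was lower, where 12.6% of all genes were higher and 11.9% lower. DESeq2 called none of them, with none at an unadjusted p under 0.05 in either direction, and the count fell to 0 without collection 2B and to 2 without collection 1B. Uqcr11 had 542 and 469 CPM above the limit and 277 and 300 below it (log2 difference 0.98 ± 0.33, edgeR adjusted p = 0.016). The nuclear share itself was 2.74% above and 2.39% below the limit in replicate 1 and 1.98% above and 2.27% below in replicate 2, so the replicates disagreed in direction. Within the Des cluster it was 2.77% above and 2.86% below in replicate 1 and 1.97% and 2.98% in replicate 2, the last from 5 barcodes. Malat1 took 6.99% of non-mitochondrial UMIs above and 2.98% below the limit in replicate 1 and 9.94% and 2.24% in replicate 2, and its part was not tested.

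The same split in other groups called no nuclear member. In blood endothelial-like cells none of 72 tested passed in either direction, where 0.0626% of all genes were higher and 0% lower, with 1 member higher and 1 lower at an unadjusted p under 0.05 in edgeR and none in DESeq2. In fibroblast-like cells none of 79 passed (0.023% of all genes higher and 0.046% lower), with 0 higher and 7 lower unadjusted in edgeR and 0 and 2 in DESeq2. In the unnamed group none of 38 passed (0.318% higher and 0.318% lower), with 3 higher and 0 lower unadjusted in edgeR and none in DESeq2.

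In the unnamed Rgs5 and Acta2 group 45 of 79 nuclear members were higher and none lower, where 12% of all genes were higher and 8.32% lower. The median log2 fold change was 0.96, against -0.21 over all genes, and 1 member was lower at an unadjusted p under 0.05 in edgeR and none in DESeq2. Of the mitochondrially encoded members 6 of 7 were higher, mt-Cytb by 1.44 and mt-Nd5 by 0.62, with mt-Nd6 not past the test on 6 UMIs. Ndufs7 (222 and 359 CPM) and Ndufb9 (565 and 496 CPM) had the largest nuclear log2 fold changes, 2.14 ± 0.32 and 2.06 ± 0.23. Its pericyte markers summed to 7080 and 6737 CPM and its smooth muscle markers to 17590 and 18550, against 11170 and 11260 and 4957 and 4502 in pericyte-like cells.

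Pericyte-like cells, the contractile cells on capillaries, showed the genomes moving apart. Of the mitochondrially encoded members 4 of 7 were higher and none lower, where 11% of all genes were higher and 3.81% lower. mt-Cytb had 4481 and 4519 CPM of all UMIs in collections 1A and 1B and 4793, 5086 and 5181 in 2A, 2B and 2C, a log2 fold change of 0.63 ± 0.11 (edgeR adjusted p = 1.1e-06). Every collection was above those of the 8 groups with smaller shares and below those of the unnamed group. The calls of mt-Nd2, mt-Nd4 and mt-Nd5 ended under 8, 6 and 3 of 17 alternatives, and that of mt-Cytb under none. Without collection 1B 1 of the 7 was called, and without collection 2C 2 were. Of the nuclear members 13 of 79 were lower and 1 higher, with a median of -0.66 against -0.08 over all genes. DESeq2 called 7 lower, 7 were lower without collection 1A and 8 without collection 2A, and the calls of Atp5g2 and Cox7a2 ended under 8 of 18 alternatives each.

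The lower nuclear members of pericyte-like cells came from complex I (Ndufa8, Ndufb8), complex III (Uqcrc2, Uqcrq), complex IV (Cox4i1, Cox5a, Cox7a2, Cox7a2l, Cox7c and Ndufa4) and ATP synthase (Atp5c1, Atp5e, Atp5g2). Cox4i1 had 526 and 493 CPM and a log2 fold change of -0.74 ± 0.19 (edgeR adjusted p = 0.0015). Of the 83 nuclear members matched to GENCODE, 39 overlap another gene. Whether strand was used in counting is not given in the sources used here, so reads of such pairs cannot be told apart.

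Ndufa4 was at 23.9 and 19.7 CPM in the replicates of pericyte-like cells, from 2 UMIs each, the lowest of all groups, with a log2 fold change of -2.70 ± 0.55 (edgeR adjusted p = 7.2e-05) that no alternative ended. Its relative Ndufa4l2, which was left out of the members and is known as a gene raised under low oxygen, had 143 and 197 CPM there from 12 and 20 UMIs. In the unnamed group Ndufa4l2 had 605 and 701 CPM beside 222 and 171 CPM of Ndufa4, whereas smooth muscle-like cells had 1 UMI of Ndufa4l2 beside 457 and 381 CPM of Ndufa4. In the other 8 groups Ndufa4l2 had between 0 and 11 UMIs. The adjusted p of Ndufa4l2 was 1.7e-16 in pericyte-like cells and 4.5e-37 in the unnamed group (edgeR), and since 4 groups had none of its UMIs no fold change is given.

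A second pair was read in the same groups. Cox4i2, the alternative form of the Cox4i1 subunit of cytochrome c oxidase, had 227 and 335 CPM in pericyte-like cells and 393 and 564 CPM in the unnamed group. Both replicates of both groups were above all others, the next being fibroblast-like cells at 17.0 and 10.8 CPM, and T/NK/ILC-like cells had no UMI. The adjusted p of Cox4i2 was 2.4e-20 in pericyte-like cells and 6.5e-28 in the unnamed group (edgeR). In smooth muscle-like cells Cox4i2 had 9.93 and 12.5 CPM, while Cox4i1 had 1507 and 1276. The unnamed group held Cox4i1 near the smooth muscle-like level, at 1351 and 1129 CPM, together with Cox4i2 above the pericyte-like level.

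**Figure D4:**
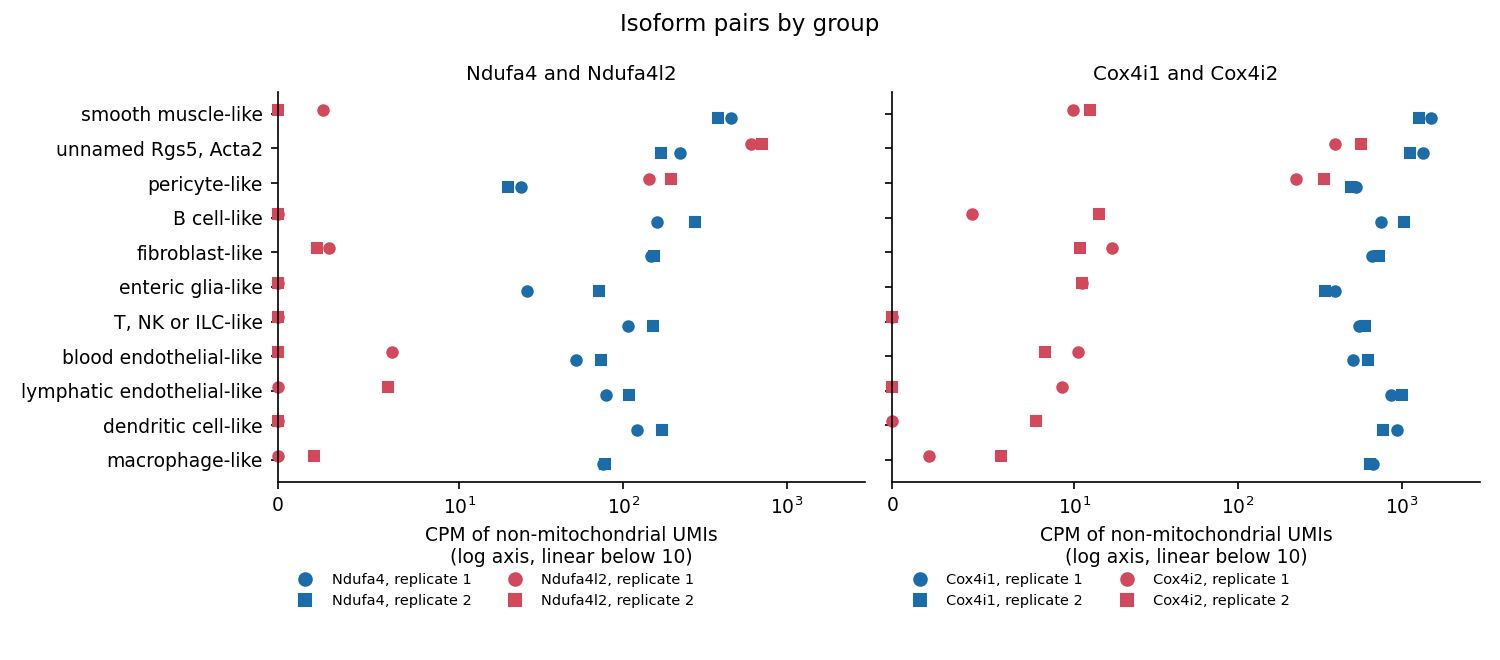
CPM of non-mitochondrial UMIs (log axis, linear below 10) for Ndufa4 and Ndufa4l2 (left) and Cox4i1 and Cox4i2 (right) in 11 groups; circles are replicate 1 and squares replicate 2, blue the first and red the second gene of each pair. The red points exceed 100 CPM in pericyte-like cells and the unnamed group and stay under 20 CPM in the other groups, and Ndufa4 is lowest in pericyte-like cells at 23.9 and 19.7 CPM.

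Blood endothelial-like cells had most nuclear members lower, 50 of 79, and 2 higher, where 12.8% of all genes were lower and 27.3% higher. The median log2 fold change was -0.67 against 0.07 over all genes. By complex, 24 of 36 nuclear members of complex I, none of 6 of complex II, 4 of 8 of complex III, 9 of 13 of complex IV and 13 of 16 of ATP synthase were lower. Ndufa13 had 74.7 and 57.0 CPM, below the mean of every other group, with a log2 fold change of -1.53 ± 0.20 (edgeR adjusted p = 5.7e-11), and Ndufs6 had 31.6 and 35.2 CPM with -1.52 ± 0.26. Cox7a2l (338 and 330 CPM) was higher by a log2 fold change of 0.38, a call that ended under 8 of 19 alternatives. Of the mitochondrially encoded members 6 of 7 were lower, mt-Nd5 the most at -0.74, and mt-Nd6 did not pass.

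Enteric glia-like cells, the support cells of the gut's neurons, had 44 of 79 nuclear members lower and none higher, where 10.2% of all genes were lower and 23.1% higher. The median log2 fold change was -0.71 against 0.04 over all genes, and neither edgeR at an unadjusted p under 0.05 nor DESeq2 found a higher one. ATP synthase was the complex with the largest share of lower members, 14 of 16, and complex IV had 11 of 13, complex III 4 of 8, complex I 15 of 36 and complex II none of 6. Ndufa3 had 18.6 and 48.4 CPM and a log2 fold change of -1.68 ± 0.34 (edgeR adjusted p = 1.6e-05), and Cox4i1 had 394 and 339 CPM, in the mean below all other groups, and fell by 1.00 ± 0.16 on the log2 scale. Of the mitochondrially encoded members only mt-Co1 was lower, by -0.44, so the glia-like cells combined the lowest nuclear share with a mitochondrially encoded share of 0.858% ± 0.015 in the middle of the order. Immediate-early and heat-shock genes, which rise during tissue handling, took 5.46% of non-mitochondrial UMIs here, the most of any group, and their part in the result was not tested.

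Fibroblast-like cells, the largest group, stayed near the average. Of 79 nuclear members 16 were higher and 5 lower, where 27.9% of all genes were higher and 10.7% lower, and the median of 0.17 was close to that of all genes, 0.14. None of the 7 mitochondrially encoded members passed in edgeR in either direction, with 0 higher and 1 lower at an unadjusted p under 0.05, and DESeq2 called 0 higher and 2 lower. The largest rises were those of Cox6b2, a form of the Cox6b subunit known from testis, with 39.7 and 51.6 CPM (log2 fold change 1.62 ± 0.26, edgeR adjusted p = 7.5e-08), and Cox7c, with 898 and 1051 CPM (1.01 ± 0.12). Smooth muscle-like cells shared both, Cox6b2 at 37.3 and 50.2 CPM. Uqcrfs1 (-0.57) and Cox5b (-0.54) were the largest falls. Cox7c resembles Gm20091, another row of the tables, so its reads may have been split.

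The fibroblast-like cells fell into 4 clusters. The cluster led by Edil3, Stmn2 and Osr1 (1606 barcodes, F1) had 36 of 77 tested nuclear members higher and 2 lower against the mean of the other 3, where 12.7% of 6987 genes were higher and 15.8% lower. Its median log2 difference was 0.41, against 0.03 over all genes. DESeq2 called 8 higher and 1 lower, and 23 higher at an unadjusted p under 0.05. Cox7c had 1378 and 1500 CPM in collections 1A and 1B and 1522, 1541 and 1445 CPM in 2A, 2B and 2C, above every collection of the other clusters, which reached at most 917 CPM. Its log2 difference was 1.13 ± 0.10 (edgeR adjusted p = 1.7e-15). Atp5g1 (136 and 189 CPM, 0.87 ± 0.16) and Ndufa5 (110 and 128 CPM, 0.83 ± 0.18) followed. The mitochondrially encoded members mt-Cytb, mt-Nd2, mt-Nd4 and mt-Nd5 were higher by 0.28 to 0.33, whereas DESeq2 called 2 of the 7 tested higher. Scaled by total UMIs, the median over all genes moved from 0.03 to 0.20 and the share of higher among called genes from 44.6% to 66.1%, with 54 nuclear members higher and 1 lower.

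The cluster led by Pcolce2, Has1 and Pi16 (625 barcodes, F3), genes known from adventitial fibroblasts, went the other way. Of 77 nuclear members 27 were lower and 1 higher, where 12.9% of all genes were lower and 17.6% higher, with a median of -0.39 against -0.01. DESeq2 called 8 lower and none higher, with 21 lower and 1 higher at an unadjusted p under 0.05. The drop was clearer for the mitochondrially encoded members, with 6 of 7 lower in both tools. mt-Cytb had 1913 and 1667 CPM of all UMIs in collections 1A and 1B and 1830, 1905 and 2011 in 2A, 2B and 2C. The other clusters had at least 2510, so no collection overlapped, and the log2 difference was -0.79 with edgeR. mt-Nd5 had 429 and 378 CPM and a log2 difference of -0.92. Of the nuclear members Ndufa12 (24.6 and 38.9 CPM) fell by 1.17 on the log2 scale and Atp5e (240 and 253 CPM) by 0.89. The share of mitochondrially encoded members was 0.597% ± 0.024 (SD, n = 2) in this cluster, 1.09% ± 0.052 in the Stmn2 cluster, 1.07% ± 0.141 in the Ednrb cluster and 0.885% ± 0.104 in the Serpina3g cluster. Mitochondrial ribosomal RNA differed less, at 3.72%, 3.91%, 3.95% and 4.04% of all UMIs in the same order. Per 100 UMIs of this RNA, mitochondrially encoded members numbered 16.1, 27.9, 27.0 and 21.9.

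The remaining clusters showed fewer calls. In the cluster led by Ednrb and Plau (636 barcodes, F2) 4 of 77 nuclear members were higher and 2 lower, where 10.5% of all genes were higher and 7.47% lower, and 5 of 7 mitochondrially encoded members were higher. Cox6c (576 and 794 CPM, log2 difference 0.76 ± 0.12) and Atp5g2 (0.74 ± 0.17) were the largest rises, and Sdhb (60.1 and 40.3 CPM) fell by 0.98 and Cox7c by 0.64. DESeq2 called 2 nuclear members higher and 1 lower, and 3 of 7 mitochondrially encoded members higher. The call of mt-Nd2 ended under 6 of 10 alternatives. In the cluster led by Serpina3g and Niacr1 (366 barcodes, F4) 2 nuclear members were higher, among them Atp5e by 0.44, and none was lower, where 9.07% of all genes were higher and 2.15% lower, with 3 higher and 6 lower at an unadjusted p under 0.05. No mitochondrially encoded member passed in edgeR or DESeq2, with 2 and 1 higher at an unadjusted p under 0.05 and 0 lower in both. The call of Atp5e ended under 7 of 10 alternatives, and DESeq2 called no nuclear member in either direction. Scaled by total UMIs, the share of higher among called genes in F4 moved from 80.9% to 59.3%.

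**Figure D5:**
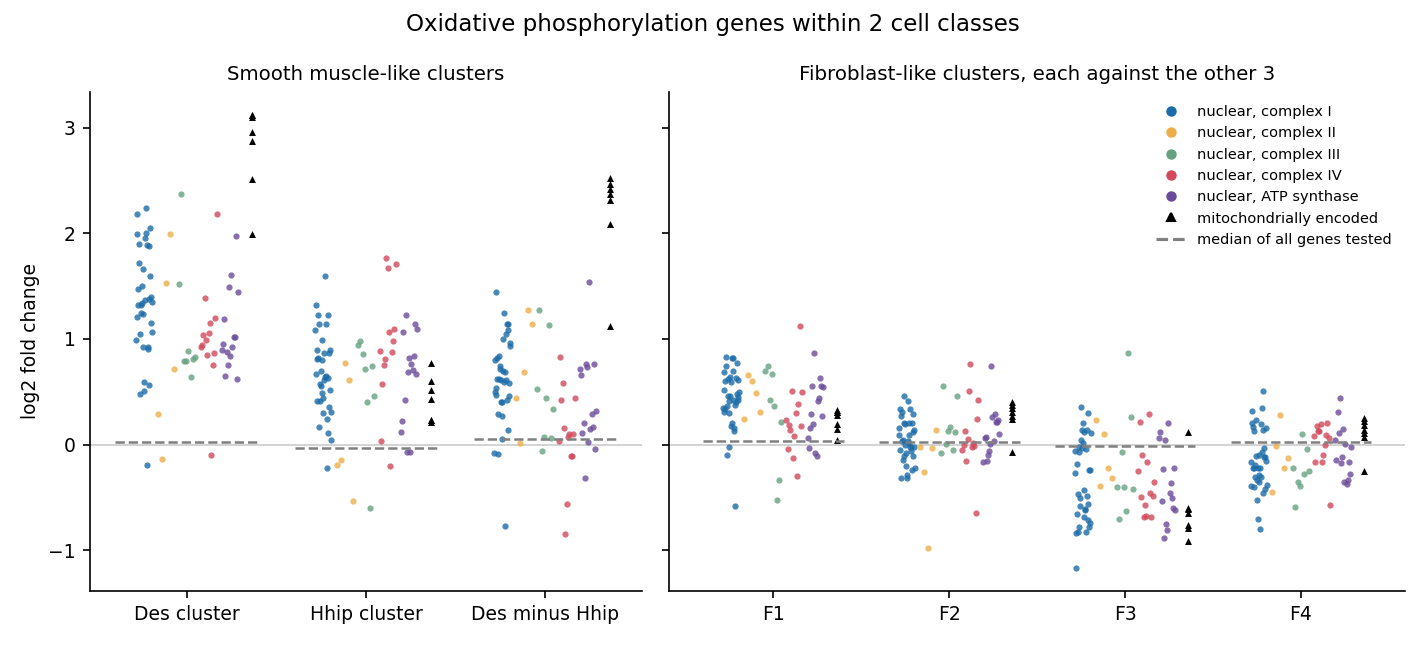
Log2 fold change of each tested member within 2 classes: smooth muscle-like clusters against the other groups and against each other (left) and each fibroblast-like cluster against the mean of the other 3 (right); dots are nuclear members by complex, triangles mitochondrially encoded members and dashed lines the median of all genes tested. The triangles lie far above the dashed lines in the Des cluster and in its difference from the Hhip cluster (median 2.37), and 6 of 7 were lower in F3.

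In B cell-like cells 13 of 79 nuclear members were higher and 2 lower, where 18.3% of all genes were higher and 10.7% lower, and 4 of 7 mitochondrially encoded members were lower, mt-Nd4 the most at -0.63. By complex, 3 of 6 members of complex II were higher, Sdha (123 and 98.5 CPM) by 0.77, Sdhb by 0.72 and Sdhd (74.4 and 77.4 CPM) by 1.00. The calls of Sdha, Sdhb and Sdhd ended under 8, 9 and 4 alternatives of processing, and Sdhb turned to -0.08 when members took part in the clustering. Ndufs3 was higher by 1.07 (105 and 70.3 CPM), and Uqcr11 lower by -0.89. Without collection 1A, and likewise without 2C, 7 nuclear members were higher in place of 13. With the members in the clustering 4 were higher and 8 lower, and the nuclear median log2 fold change of 0.25 turned to -0.13. Without the barcodes in the top 5% of doublet scores 3 were higher and 1 lower, with a median of -0.01. Atp5sl had 61.3 and 42.2 CPM in the replicates from 14 and 6 UMIs (edgeR adjusted p = 0.00048), and none of 12 alternatives ended its call. No fold change is given for it because the unnamed group had none of its UMIs. Fibroblast markers summed to 2136 CPM in replicate 1 and 8995 CPM in replicate 2 of this group, which also raised 6 cell-cycle markers, and the part of either in the nuclear share was not tested. Scaled by total UMIs, the share of higher among called genes moved from 63.0% to 74.0% and the median over all genes from 0.02 to 0.21.

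In T/NK/ILC-like cells 7 nuclear members were higher and 12 lower, where 22.8% of all genes were higher and 15.3% lower, and 6 of 7 mitochondrially encoded members were lower. The nuclear median of -0.09 turned to 0.02 with scaling by total UMIs, where the median over all genes moved from 0.01 to 0.12. Sdhaf1, an assembly factor for complex II, had 80.3 and 73.7 CPM and the largest rise, 2.03 ± 0.37 (edgeR adjusted p = 2.2e-06), and Sdhd (71.4 and 93.4 CPM) rose by 1.18 ± 0.31. Uqcr11 had 44.6 and 59.0 CPM and fell by 1.34. Cox6b2 had 2 UMIs in replicate 1 and none in replicate 2.

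Macrophage-like cells had 3 nuclear members higher and 16 lower, where 27.5% of all genes were higher and 13.7% lower. They too raised Sdhaf1 (48.5 and 69.4 CPM, 1.88 ± 0.33), and Cox5a by 0.67. Ndufb2 (42.5 and 39.7 CPM) fell by 1.29. Of the mitochondrially encoded members 6 of 7 were lower, mt-Cytb by -0.80. Scaled by total UMIs, the median over all genes moved from 0.03 to -0.16, the share of higher among called genes from 66.7% to 55.1%, and 38 members in place of 22 were lower.

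Dendritic cell-like cells had 8 nuclear members higher and 4 lower, where 17.9% of all genes were higher and 10.6% lower, and 6 of 7 mitochondrially encoded members lower, mt-Cytb by -0.94. Uqcrq, a small subunit of complex III, rose by 1.02 ± 0.19 with 395 and 451 CPM, second to the unnamed group, and Cox5a by 0.90 ± 0.23 with 252 and 213 CPM. The falls of Ndufs3 and Sdhc rested on 4 and 6 UMIs, and their calls ended under 7 and 8 alternatives. With the members in the clustering 11 nuclear members were higher and none lower, and the nuclear median turned from -0.11 to 0.19.

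Lymphatic endothelial-like cells had 7 nuclear members higher and 3 lower, where 17.8% of all genes were higher and 10.7% lower. Uqcr11 (209 and 243 CPM) rose by 0.95 ± 0.23, Ndufb4 by 0.92 ± 0.28 and Cox7a2l (558 and 443 CPM) by 0.84 ± 0.17, whereas Cox8a (228 and 304 CPM) fell by 0.86. Of the mitochondrially encoded members 5 of 7 were lower, mt-Nd1 the most at -1.40 and mt-Cytb at -1.24, and mt-Co1 and mt-Nd6 did not pass. The difference between the 2 endothelial groups was not tested. When barcodes above 10% mitochondrial UMIs were left out, fewer mitochondrially encoded members were lower in several groups: 1 in place of 4 in B cell-like cells, 3 in place of 6 in T/NK/ILC-like and in macrophage-like cells, 4 in place of 6 in blood endothelial-like cells and 3 in place of 5 in lymphatic endothelial-like cells. In dendritic cell-like cells 6 were lower with and without those barcodes.

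The levels were also read by member instead of by group. Of the 79 tested, 41 had their highest mean in the unnamed group, 21 in smooth muscle-like, 6 in B cell-like, 5 in T/NK/ILC-like, 3 in dendritic cell-like, 2 in lymphatic endothelial-like and 1 in fibroblast-like cells. The lowest mean lay in enteric glia-like cells for 29, blood endothelial-like cells for 16 and pericyte-like cells for 13. All 7 tested mitochondrially encoded members were highest in smooth muscle-like cells. The same counts were not made over all genes tested, and means of small groups such as the unnamed one are less exact. These counts therefore describe levels and are not a result particular to the members.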

How the data were processed

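The deposited tables hold UMI counts per gene and barcode, 1 table per collection, made by the authors, and the submitters' processing notes name the aligner STAR 2.6 and the genome mm10. Which program counted, on which annotation and with or without strand, is not given in the sources used here. Members and gene lists were chosen with earlier results of these data known.

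Barcodes with 300 or more genes were kept. Counts were scaled to 10000 per barcode, and 2000 variable genes, 30 principal components and 15 neighbours entered Leiden clustering at resolution 1 (0.5 within fibroblast-like cells), with 235 member, mitochondrial and metabolic genes kept out. This gave 23 clusters, each named for the class with the largest share of raised markers where at least 3 were raised. A name was withheld where the leading gene marked another class that had most of its markers raised, as Rgs5 did in the unnamed cluster. It was also withheld where another class had clearly more markers among the leading genes. The clusters were merged into 11 tested groups, and 4 further groups were too small. Free RNA was not removed, and no doublets were removed.

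UMIs were summed per group and biological replicate, which gave 22 sums of at least 20 barcodes. edgeR's quasi-likelihood test with TMM scaling, a filter on low counts and the replicate as a block compared each group with the mean of the others. Collections of a replicate are repeat runs and were added together. The replicate number pairs the groups because all groups of a replicate come from the same cell isolations. The same fit was used within fibroblast-like cells and for splits at 10% mitochondrial UMIs. All genes were in 1 table with the mitochondrial ones, which only the splits left out; CPM levels are descriptive and were not used in the fit. The rule for named genes took all mitochondrially encoded members, the 2 nuclear members with the largest changes each way in a group (6 in smooth muscle-like cells, 3 in fibroblast-like clusters and splits) among those past the threshold with both replicates on the same side, the Sdh, Atp5g and tissue-isoform genes, Ndufa4, Ndufa4l2 and Cox4i2, and the 3 largest changes each way of other lists in smooth muscle-like cells. Other genes named were chosen after their values were seen, and 1 member that the rule took is not reported here. The plan named 13 mitochondrially encoded members, of which 11 are in the tables.

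On simulated counts for the comparison of groups (5908 genes tested), 55.8% of 2-fold and 93.3% of 4-fold changes were recovered. For the smooth muscle-like split (2310 genes tested) the values were 46.6% and 99.0%. For the fibroblast-like clusters (6852 genes tested) they were 89.8% and 100.0%. Changes were planted only in smooth muscle-like cells, in F1 and above the limit of the split, and only in well-counted genes. All other levels were the same in every group, with a fixed spread set beforehand. Recovery in each of the 11 groups at its own number of barcodes was not tested, nor for members of few UMIs, and these values do not give it. Alternatives were DESeq2, other scalings, filters, clusterings, doublet removal, mitochondrial limits and leaving out each collection. R 4.3.3, edgeR 4.0.16, limma 3.58.1, DESeq2 1.42.0, Python 3.11.15, scanpy 1.11.5, scikit-learn 1.9.0 and scipy 1.17.1 were used.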

Additional observations from a re-analysis of the deposited data

Results flagged for a closer look

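The nuclear share of B cell-like cells in collection 2C was 2.34% of non-mitochondrial UMIs, from 21 barcodes. It lay far from the other 4 collections, of 25 to 105 barcodes, at 1.18% to 1.49%, with a gap of 0.734 of the range. Among the 22 sets of 5 collections checked, 11 groups by 2 shares, this was the only one past the limit, and chance alone marks about 1 in 20. The cause was not tested.

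Some barcodes that entered no comparison had mitochondrially encoded members above the 1.14% of UMIs found over all kept barcodes. In the 1263 barcodes under 300 genes the share was 3.02%. Among groups too small to test, it was 2.84% in 46 enteric neuron-like, 2.72% in 30 interstitial cell of Cajal-like and 2.55% in 38 epithelial-like barcodes. In 45 plasma cell-like barcodes it was 0.867%.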

How the results depend on the processing

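Counts below are of nuclear and mitochondrially encoded members together. Over all alternatives, smooth muscle-like cells had 58 to 76 members higher, against 73, and 63 to 74 with 1 collection left out. Of the values for named genes under alternatives, 2868 kept direction and side of the threshold, 293 lost the call and 1 reversed: Sdhb in B cell-like cells was -0.080 with members in the clustering. For each value below that moved, the cause was not tested.

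DESeq2 gave 0 higher in blood endothelial-like, 8 lower in fibroblast-like and 7 lower in pericyte-like cells, 10 higher and 1 lower in F1, 5 and 1 in F2, 0 and 14 in F3, 0 higher in F4 and 0 higher in the smooth muscle-like split. Without the replicate block, the pairing of groups by replicate, F1 had 1 lower, F2 5 higher, F4 0 higher and the split 7 higher, and no other count moved by over 1.5 times. Total UMIs as scale gave 24 higher and 2 lower in B cell-like, 12 higher in T/NK/ILC-like, 0 higher in blood endothelial-like, 10 lower in fibroblast-like, 12 higher in lymphatic, 38 lower in macrophage-like and 8 lower in pericyte-like cells, 1 lower in F1, 0 higher and 5 lower in F4, and 0 higher and 1 lower in the split. Median-of-ratios factors gave 0 higher in blood endothelial-like and 9 lower in fibroblast-like cells. Without a filter there were 8 higher in B cell-like, 4 higher in dendritic cell-like, 1 lower in fibroblast-like and 8 lower in pericyte-like cells, 1 lower in F1, 2 higher in F3 and 0 higher in F4.

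At 500 genes per barcode blood endothelial-like cells had 1 higher, pericyte-like 2 higher and 8 lower, and the split 1 higher. Mitochondrially encoded shares were then 0.748% (T/NK/ILC-like), 0.588% (dendritic cell-like), 0.830% (glia-like), 0.614% (macrophage-like), 1.41% (pericyte-like) and 2.13% (unnamed), and the nuclear share 2.55% (unnamed). At most 10% mitochondrial UMIs left 3 lower in B cell-like, 11 higher in T/NK/ILC-like, 3 lower in fibroblast-like, 5 lower in lymphatic and 11 lower in macrophage-like cells. The shares were then 0.691% (blood endothelial-like), 0.575% (dendritic cell-like), 0.770% (glia-like), 0.616% (macrophage-like), 1.32% (pericyte-like), 1.59% (smooth muscle-like) and 1.80% (unnamed), and nuclear 0.907% (pericyte-like) and 2.44% (unnamed). As medians over barcodes they were 0.708% (T/NK/ILC-like), 0.543% (dendritic cell-like), 0.752% (glia-like), 0.567% (macrophage-like), 1.42% (pericyte-like), 2.96% (smooth muscle-like) and 2.13% (unnamed), and nuclear 1.15% (T/NK/ILC-like), 0.886% (pericyte-like) and 2.32% (unnamed).

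Leiden resolution 0.5 gave 38 higher in fibroblast-like and 11 higher in lymphatic cells and no pericyte-like group. Members in the clustering gave 4 higher and 12 lower in B cell-like and 6 lower in dendritic cell-like cells. The smooth muscle-like clusters as 2 groups gave 0 higher in blood endothelial-like, 5 higher in dendritic cell-like, 10 higher and 10 lower in fibroblast-like and 3 higher in pericyte-like cells. The split at 20% gave 1 higher and 5 lower. Sums per collection gave 17 lower in dendritic cell-like and 39 higher in fibroblast-like cells. Without the top 5% of Scrublet scores there were 3 higher in B cell-like, 5 in dendritic cell-like, 25 higher and 3 lower in fibroblast-like, 11 higher in lymphatic and 3 higher in pericyte-like cells, with shares of 0.829% (glia-like), 0.628% (macrophage-like) and 1.45% (pericyte-like), and nuclear 0.918% (pericyte-like) and 2.55% (unnamed).

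With 1 collection left out, counts ranged from 7 to 13 higher in B cell-like (lowest without 1A and 2C), 0 to 2 higher in blood endothelial-like, 5 to 6 higher in dendritic cell-like, 3 to 5 lower in fibroblast-like, 1 to 5 higher (lowest without 1B and 2C) and 7 to 13 lower (lowest without 1A and 2A) in pericyte-like cells, 0 to 2 lower in F1, 4 to 9 higher in F2 (lowest without 1A), 1 to 2 higher in F3, 0 to 2 higher and 0 to 2 lower in F4, and 0 to 5 higher in the split (2 without 1B, 0 without 2B). Mitochondrially encoded shares ranged from 0.910% to 0.996% (B cell-like), 0.721% to 0.794% (T/NK/ILC-like), 0.683% to 0.734% (blood endothelial-like), 0.826% to 0.887% (glia-like), 0.612% to 0.649% (macrophage-like), 1.46% to 1.51% (pericyte-like) and 2.14% to 2.35% (unnamed), and nuclear from 0.899% to 0.996% (pericyte-like) and 2.47% to 2.57% (unnamed). Depth limits the small groups most: genes of few UMIs, such as Ndufa4 in pericyte-like cells, carry wide counting error.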
